A study of Mus musculus with 21 samples.

Results

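The genes described here are 33 genes of glycolysis and of the response to low oxygen, out of 45706 genes in the table of counts deposited for sorted mouse brain immune cells after traumatic brain injury. They were chosen by name, as glucose transporters, the enzymes that turn glucose into lactate, the entry of pyruvate into mitochondria, and well known genes of the hypoxia response. Each name matched 1 row of the table, and all 33 passed the filter on low counts. RNA was sequenced from 21 libraries in 7 groups of 3, each library pooling the tissue around the lesion of 2 brains. Male mice of 17 to 24 weeks received a controlled cortical impact (CCI), a piston blow to the exposed cortex, or a sham craniotomy without the blow. The 5 microglia groups (CD45low CD11b+, 40000 sorted cells) came from wild-type (WT) sham mice, and from WT and Fgg390-396A mice at 1 d and at 7 d post-CCI. The 2 groups of infiltrating myeloid cells (CD45hi CD11b+, 25000 sorted cells, labelled as macrophages) came from WT and Fgg390-396A mice at 1 d post-CCI. In Fgg390-396A mice, called Fgg mice below, both copies of the gene for the fibrinogen gamma chain are altered throughout the body at the stretch that the CD11b/CD18 integrin uses, while clotting is kept. No Fgg sham group was analysed here, so the Fgg groups were set against WT sham microglia, and all comparisons with sham share those 3 libraries. The time from sham surgery to sorting is not given, so neither the 1 d nor the 7 d comparison with sham is known to be matched in time.

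Glycolysis splits glucose into pyruvate in the cytosol, and lactate dehydrogenase then turns pyruvate into lactate, which leaves the cell through monocarboxylate transporters. The transcription factor subunit HIF-1 alpha is broken down while oxygen is present and builds up when oxygen is scarce or in inflamed myeloid cells, and it binds a short motif near many glycolytic genes. Activated microglia and macrophages are known for heavy use of this route, while resting microglia also burn other fuels.

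Levels are given as CPM (counts scaled to a common library total) after scaling for library composition, from counts in which the authors had divided out transcript length, so that levels of different genes can be set side by side. Total counts ran from 18896957 to 51875767 per library, of which genes of ribosomal RNA took 43.2% to 58.7%. A scaled count of 3 corresponds to 0.0447 to 0.158 CPM. It does not stand for 3 reads, because transcript length was divided out. Such floors are thus a rough guide to counting error and cover no other error. Summed levels of 12 microglia markers were 13007 to 14715 CPM in sham, 4385 to 6259 CPM in WT microglia at 1 d and 473 to 1178 CPM in infiltrating myeloid cells, where 12 monocyte and macrophage markers summed to 3119 to 4624 CPM against 10.0 to 255 CPM in the microglia libraries. Infiltrating myeloid cells also held 2861 to 13555 CPM of 12 neutrophil markers, against 106 to 878 CPM in microglia. In both genotypes at 1 d, microglia replicate 1 stood apart from replicates 2 and 3, with the lowest level of each of the 9 enzymes from Gpi1 to Ldha that are named below, and counts of members are given with and without it.

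The start regions of several members hold the core of the hypoxia response element, the motif bound by HIF-1, spelled ACGTG or GCGTG and read on both strands. RefSeq windows (GRCm38.p6) were found for 32 of the 33 members, under the name Ero1a for Ero1l, with 46 windows in all. The core was present in 36 of these 46 windows (78.3%) and in 38.6% of the 32851 windows of all genes. The form ACGTG alone was present in 20 windows of members (43.5%) and in 16.6% of all windows. A match of 5 letters is a description of the sequence and not a binding site. The 250 bases before the start are printed, with the core in capitals on either strand, for 4 members that rose in WT microglia at 1 d and hold it (Pgk1, Ldha, Pgam1 and Slc16a1), for 1 that rose without it (Mif), for 1 that holds it and did not pass the test (Hk2) and for 1 that fell (Ldhb).
Pgk1, chrX:106186850-106187099, plus strand: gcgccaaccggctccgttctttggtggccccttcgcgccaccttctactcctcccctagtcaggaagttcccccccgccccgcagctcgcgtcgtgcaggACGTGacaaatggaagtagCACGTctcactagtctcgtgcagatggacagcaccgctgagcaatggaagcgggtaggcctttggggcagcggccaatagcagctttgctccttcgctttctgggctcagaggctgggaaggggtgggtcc
Ldha, chr7:46845554-46845803, plus strand: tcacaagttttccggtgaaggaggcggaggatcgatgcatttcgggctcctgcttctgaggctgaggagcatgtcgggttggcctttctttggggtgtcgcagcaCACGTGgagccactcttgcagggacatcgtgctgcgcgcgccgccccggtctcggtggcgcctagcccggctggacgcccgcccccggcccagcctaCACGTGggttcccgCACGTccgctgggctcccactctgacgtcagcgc
Pgam1, chr19:41911621-41911870, plus strand: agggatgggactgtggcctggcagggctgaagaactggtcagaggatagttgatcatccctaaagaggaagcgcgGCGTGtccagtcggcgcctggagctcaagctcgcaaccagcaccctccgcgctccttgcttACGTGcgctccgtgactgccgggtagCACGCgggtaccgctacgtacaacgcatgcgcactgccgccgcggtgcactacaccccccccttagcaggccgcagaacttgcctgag
Slc16a1, chr3:104638414-104638663, plus strand: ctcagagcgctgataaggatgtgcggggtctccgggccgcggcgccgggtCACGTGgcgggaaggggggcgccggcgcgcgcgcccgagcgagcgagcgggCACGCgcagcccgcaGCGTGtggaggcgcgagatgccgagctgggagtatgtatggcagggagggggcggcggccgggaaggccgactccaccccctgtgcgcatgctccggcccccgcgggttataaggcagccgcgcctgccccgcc
Mif, chr10:75860278-75860527, minus strand: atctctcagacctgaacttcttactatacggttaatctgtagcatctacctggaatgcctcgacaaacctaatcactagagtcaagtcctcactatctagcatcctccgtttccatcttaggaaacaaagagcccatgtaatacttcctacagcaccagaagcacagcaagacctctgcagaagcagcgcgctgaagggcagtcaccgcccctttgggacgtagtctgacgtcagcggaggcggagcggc
Hk2, chr6:82774455-82774704, minus strand: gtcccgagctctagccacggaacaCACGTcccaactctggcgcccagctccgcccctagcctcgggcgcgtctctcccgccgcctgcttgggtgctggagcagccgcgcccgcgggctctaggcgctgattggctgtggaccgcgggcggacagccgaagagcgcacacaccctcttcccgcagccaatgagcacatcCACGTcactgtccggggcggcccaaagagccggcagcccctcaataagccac
Ldhb, chr6:142507958-142508207, minus strand: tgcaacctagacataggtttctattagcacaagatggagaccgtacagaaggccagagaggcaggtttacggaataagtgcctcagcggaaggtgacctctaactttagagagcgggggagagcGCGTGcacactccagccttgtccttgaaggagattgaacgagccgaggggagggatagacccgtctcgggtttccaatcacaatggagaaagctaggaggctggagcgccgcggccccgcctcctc
The Ldha, Pgam1 and Slc16a1 windows hold 3 cores each, those of Pgk1 and Hk2 hold 2, that of Ldhb holds 1 and that of Mif holds 0. Windows with a core are thus found among members that rose, fell and did not pass the test.

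Microglia from WT mice at 1 d post-CCI had higher levels of nearly the whole route from glucose uptake to lactate export than sham microglia. Of the 33 members, 22 rose and 4 fell at an adjusted p below 0.05 (edgeR's quasi-likelihood test, Benjamini-Hochberg over 23815 genes), against 10.7% of all genes tested that rose and 5.97% that fell. The median log2 fold change of the 33 members was 1.62, against 0 over all genes. By role, 2 of 3 glucose transporters, 4 of 11 genes of the upper steps, 6 of 7 of the lower steps, 3 of 4 of lactate handling, 1 of 2 of pyruvate entry and 6 of 6 hypoxia genes rose. In microglia from Fgg mice at 1 d, 17 members rose and 2 fell, against 7.6% and 2.19% of all genes, with a median of 1.05. By DESeq2, 17 rose and 5 fell in Fgg microglia, where it called 3564 of 16147 genes, 2045 of them higher. With its size factors 16 rose and 3 fell, where 2285 of 23815 genes were called, 1489 of them higher. Without replicate 1 of the injured group, 22 members rose and 2 fell in WT microglia, and 17 rose and 1 fell in Fgg microglia. Those fits called 4080 of 23719 genes in WT (2507 higher) and 2535 of 23614 in Fgg microglia (1921 higher).

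Library properties and markers moved with these counts. Mitochondrial mRNA took 6.5% to 8.28% of counts outside ribosomal RNA genes in sham, 9.43% to 14.6% in WT and 8.78% to 12.4% in Fgg microglia at 1 d. Ribosomal RNA took 43.6% to 48.1%, 50.8% to 58.7% and 47.3% to 52.6% of all counts, and composition scaling factors were 1.393 to 1.546, 0.741 to 1.11 and 0.928 to 1.292. The sham range overlapped neither WT nor Fgg microglia except in ribosomal RNA for Fgg. Summed levels of 12 monocyte and macrophage markers were 10.0 to 93.1 CPM in sham, 161 to 255 CPM in WT and 57.0 to 138 CPM in Fgg microglia, and 3 and 2 of these 12 rose in WT and Fgg microglia. Of 8 markers of cycling cells 4 and 3 rose, and of 12 microglia markers 9 and 6 fell. Their part in the member levels was not tested. In these bulk samples, fewer cells of a type and less RNA per cell cannot be told apart.

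**Figure D1:**
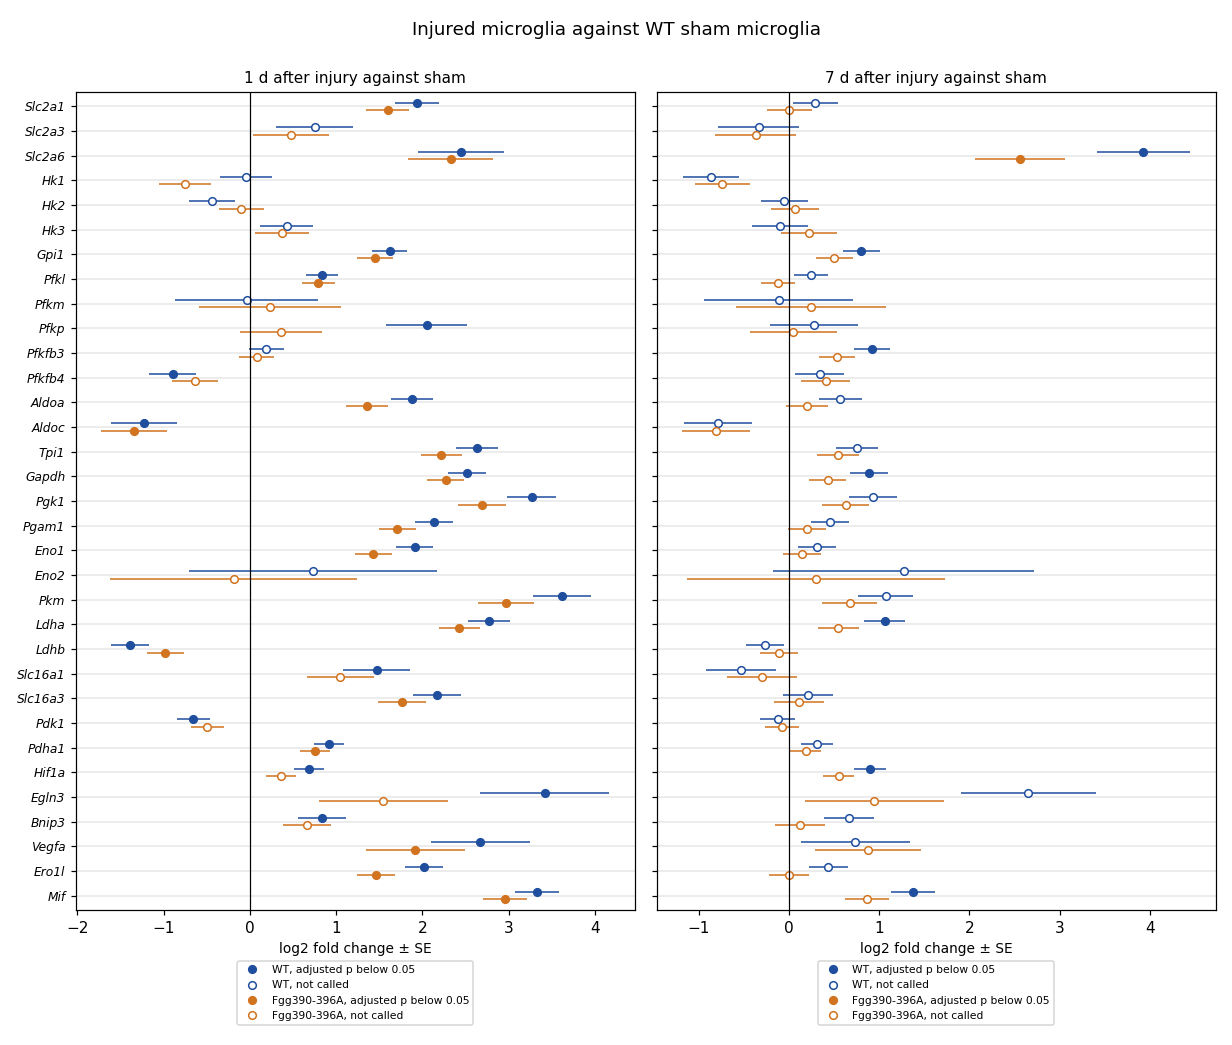
Log2 fold change of each of the 33 members in microglia from WT (blue) and Fgg (orange) mice against sham, at 1 d (left) and 7 d (right). Bars are standard errors and filled points have an adjusted p below 0.05. At 1 d, 22 members rose in WT and 17 in Fgg microglia, and at 7 d the counts were 7 and 1.

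Slc2a1 encodes GLUT1, the main glucose importer of many cells. Its level was 15.2, 16.3 and 20.7 CPM in sham, 49.2, 68.0 and 83.4 CPM in WT microglia at 1 d and 33.8, 68.7 and 55.4 CPM in Fgg microglia at 1 d. All 6 injured libraries were above all 3 sham libraries. The log2 fold change was 1.94 ± 0.25 (SE, adjusted p = 1.9e-05) in WT and 1.60 ± 0.25 (adjusted p = 0.00025) in Fgg microglia. Slc2a6 encodes GLUT6, a transporter held on lysosomal membranes. It rose from 0.159, 0.38 and 0.98 CPM in sham to 3.21, 2.1 and 3.24 CPM in WT and 2.28, 3.02 and 2.53 CPM in Fgg microglia, with log2 fold changes of 2.45 ± 0.50 (adjusted p = 0.0014) and 2.33 ± 0.49 (adjusted p = 0.0033). The size of this change rests on sham replicate 3, without which it was 3.4 in WT and 3.28 in Fgg microglia. Slc2a3, the neuronal type transporter GLUT3, lay between 1.82 and 4.61 CPM in sham and WT libraries and did not pass the test (log2 fold change 0.75 ± 0.45, adjusted p = 0.28).

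The 3 hexokinases, which trap glucose in the cell as its phosphate, did not move with the transporters. Hk2 was at 33.9, 37.6 and 47.0 CPM in sham and at 34.3, 27.5 and 25.6 CPM in WT microglia at 1 d, and Hk3 was at 30.5, 23.4 and 22.9 CPM and 34.3, 27.1 and 41.8 CPM. Hk1 lay at 4.82 to 7.06 CPM in sham and 3.7 to 7.09 CPM in WT microglia. The groups overlapped for each of the 3, and their log2 fold changes were -0.44 (95% interval -0.99 to 0.11), 0.43 (-0.22 to 1.08) and -0.05 (-0.68 to 0.58), so that a change of the size of Slc2a1 lay outside all 3 intervals.

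In the next steps, Gpi1 (glucose phosphate isomerase) rose from 21.0 to 30.3 CPM in sham to 55.6 to 101 CPM in WT microglia, a log2 fold change of 1.62 ± 0.21 (adjusted p = 1.5e-05). Of the phosphofructokinases, which commit sugar to glycolysis, Pfkl rose with a log2 fold change of 0.84 ± 0.19 (adjusted p = 0.0034), from 11.9, 9.72 and 9.5 CPM to 15.7, 18.1 and 21.8 CPM. Pfkp was at 0.382, 1.63 and 0.754 CPM in sham and at 6.37, 1.59 and 3.36 CPM in WT microglia, so the groups overlapped although the test passed (log2 fold change 2.05 ± 0.47, adjusted p = 0.0041). This value was 1.44 without WT replicate 1 and 2.70 without sham replicate 2, and in a fit of the compared groups alone the adjusted p was 0.076. In Fgg microglia Pfkp was at 1.4, 0.78 and 1.33 CPM, with a log2 fold change of 0.36 ± 0.47 against sham (adjusted p = 0.75). Pfkm, the muscle form, was below 1.5 CPM in all 21 libraries.

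The paired enzymes that set fructose 2,6-bisphosphate, the strongest activator of phosphofructokinase, behaved unlike the main route. Pfkfb3 was at 43.2, 51.6 and 47.7 CPM in sham and 59.9, 46.2 and 56.5 CPM in WT microglia at 1 d, overlapping groups with a log2 fold change of 0.19 ± 0.20 (adjusted p = 0.58). Pfkfb4 fell from 11.9, 17 and 15.9 CPM to 9.31, 8.18 and 6.56 CPM, a log2 fold change of -0.90 ± 0.27 (adjusted p = 0.027). This call was lost without any 1 of sham replicates 2 and 3 and WT replicates 2 and 3, where the adjusted p lay between 0.073 and 0.15. In Fgg microglia Pfkfb4 did not pass the test (log2 fold change -0.63 ± 0.27, adjusted p = 0.18).

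Aldoa and Aldoc, 2 forms of aldolase, went in opposite directions. Aldoa was at 45.3, 50.7 and 72.0 CPM in sham, 126, 225 and 268 CPM in WT and 101, 169.5 and 163 CPM in Fgg microglia, with log2 fold changes of 1.88 ± 0.24 (adjusted p = 1.8e-05) and 1.36 ± 0.24 (adjusted p = 0.00071). Aldoc, the form typical of astrocytes, fell from 7.04, 3.83 and 5.0 CPM in sham to 2.1, 2.46 and 2.22 CPM in WT microglia (log2 fold change -1.23 ± 0.38, adjusted p = 0.032) and to 1.66, 2.87 and 1.73 CPM in Fgg microglia (-1.34 ± 0.38, adjusted p = 0.028). Summed levels of 12 astrocyte markers moved with it, at 50.3 to 57.8 CPM in sham, 14.1 to 23.9 CPM in WT and 17.3 to 27.5 CPM in Fgg microglia. Calls of single markers were mixed, with 1 of the 12 higher and 1 lower in WT, and 1 higher and 2 lower in Fgg microglia. The part of these markers in the Aldoc result was not tested. The Aldoc call was lost in WT microglia without any 1 of the 6 libraries other than sham replicate 2 (adjusted p from 0.055 to 0.16), and in Fgg microglia without sham replicate 1 or 3 or Fgg replicate 1 or 3 (0.054 to 0.15).

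The lower steps, from triose phosphates to pyruvate, held the largest changes of the enzymes. Pkm, which makes pyruvate, was at 20.1, 22.1 and 30.4 CPM in sham, 168, 329 and 395 CPM in WT and 104, 248 and 219 CPM in Fgg microglia at 1 d. Every injured library was above every sham library. The fitted change between groups was 12.3-fold in WT (log2 3.62 ± 0.33, adjusted p = 5.5e-07) and 7.85-fold in Fgg microglia (2.97 ± 0.33, adjusted p = 6.9e-06). Pgk1, the first enzyme of the route to make ATP, was at 12.1, 13.6 and 15.9 CPM in sham, 85.1, 149 and 167 CPM in WT and 54.8, 107 and 106 CPM in Fgg microglia. Its change was 9.66-fold in WT (log2 3.27 ± 0.29, adjusted p = 3.2e-07) and 6.43-fold in Fgg microglia (2.69 ± 0.28, adjusted p = 4e-06).

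Tpi1, which interconverts the triose phosphates, was at 13.1, 16.9 and 17.7 CPM in sham, 64.9, 106 and 124 CPM in WT and 50.4, 80.3 and 92.2 CPM in Fgg microglia. Its change was 6.19-fold in WT (adjusted p = 5.5e-07) and 4.67-fold in Fgg microglia (adjusted p = 6.1e-06). Gapdh, often used as a reference gene in other assays, was at 325, 327 and 390.4 CPM in sham, 1405, 2259 and 2335 CPM in WT and 1157, 1838 and 2021 CPM in Fgg microglia. It was thus far from constant, at 5.76-fold in WT (log2 2.52 ± 0.22, adjusted p = 3.2e-07) and 4.81-fold in Fgg microglia (2.27 ± 0.22, adjusted p = 1.7e-06). Pgam1 (phosphoglycerate mutase) rose from 31.6, 44.4 and 43.0 CPM to 127, 182 and 216 CPM in WT microglia (log2 2.14 ± 0.22, adjusted p = 1.7e-06) and to 93.1, 143 and 154 CPM in Fgg microglia (1.71 ± 0.22, adjusted p = 3.5e-05). The enolase Eno1 rose by 3.76-fold in WT and 2.69-fold in Fgg microglia, while the neuronal form Eno2 was at 0 to 1.66 CPM in sham and 0.281 to 1.52 CPM in the injured libraries, with a log2 fold change of 0.74 ± 1.44 in WT. Near-identical copies to which reads could have been split have a row in the table of counts for 10 members. Those copies held 4.68% of the counts of member and copies together for Ero1l, 4.58% for Gapdh, 4.39% for Pgk1, 3.67% for Eno1 and 3.22% for Mif, and 0.953% to 2.04% for Bnip3, Pgam1, Tpi1, Pkm and Ldhb. The matches of Ero1l are genes of 102 to 126 bases, most of them annotated as microRNA genes. Some copies have no row and are not in these shares, among them Gm5452 and Gm9247 for Ldha and the protein-coding Gm10358 for Gapdh.

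**Figure D2:**
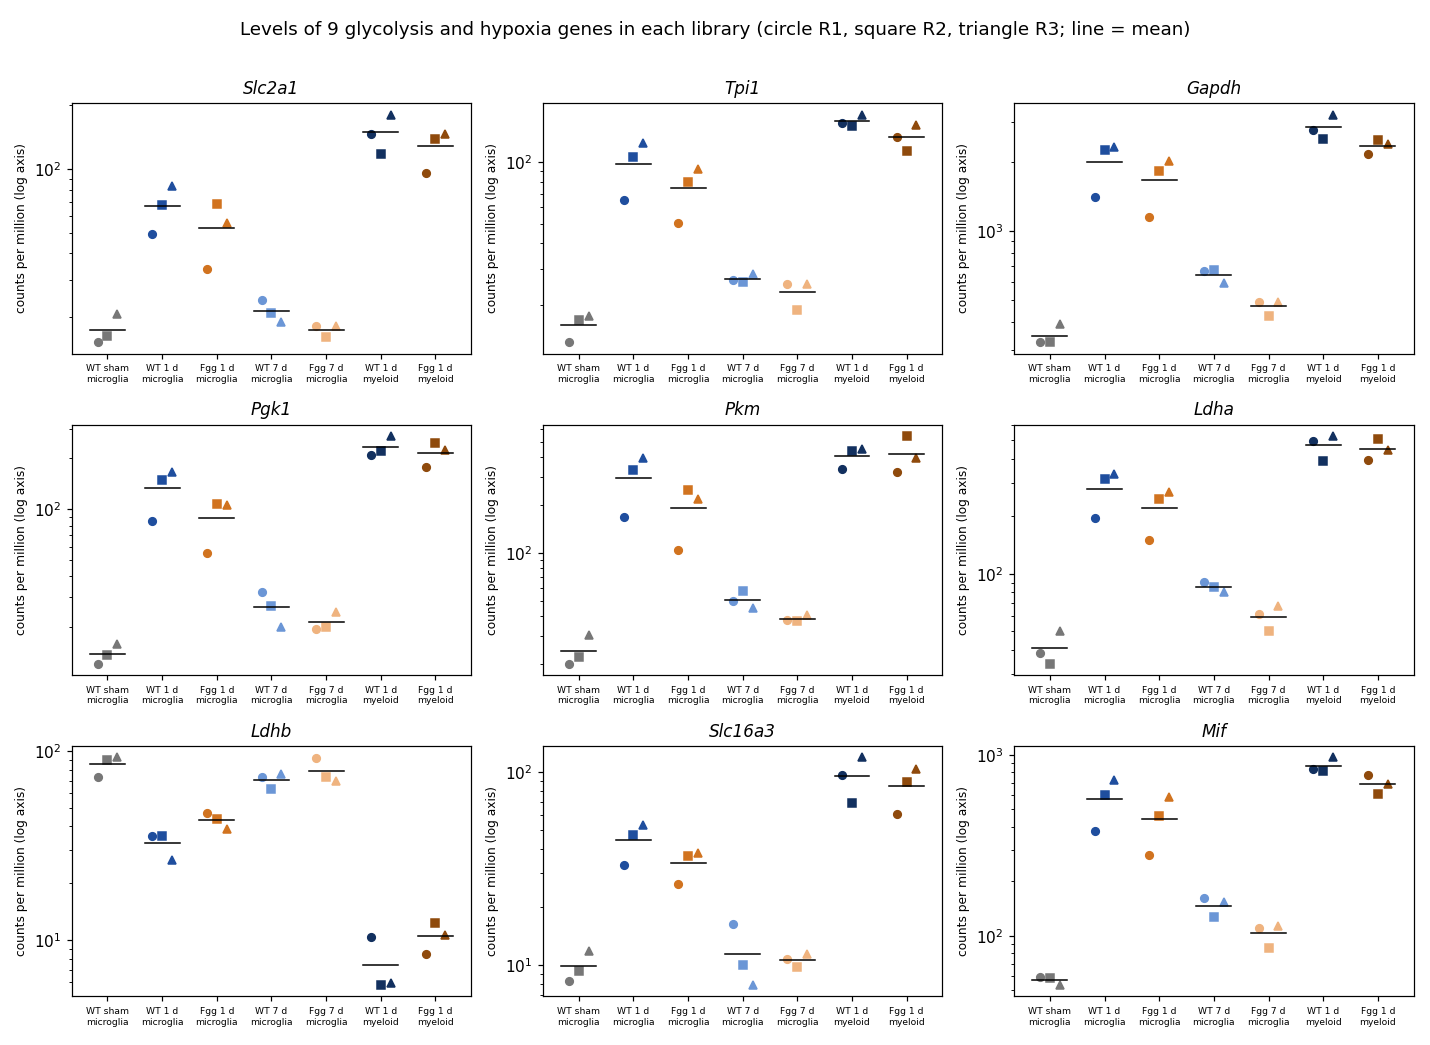
Level of 9 members in each library, in CPM on a log axis, by group. Circles, squares and triangles are replicates 1, 2 and 3, and lines are group means. Ldhb falls where the other 8 rise at 1 d, and infiltrating myeloid cells hold the highest group mean of Slc2a1, Tpi1, Gapdh, Pgk1, Pkm, Ldha, Slc16a3 and Mif.

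The 2 subunits of lactate dehydrogenase changed places. Ldha, which favours lactate production, was at 38.7, 33.9 and 50.5 CPM in sham, 195, 312 and 331 CPM in WT and 151, 246 and 268 CPM in Fgg microglia at 1 d. It rose by 6.8-fold in WT (log2 2.77 ± 0.24, adjusted p = 3.2e-07) and 5.4-fold in Fgg microglia (2.43 ± 0.24, adjusted p = 2.2e-06). Ldhb, which favours the return of lactate to pyruvate, was at 72.9, 89.5 and 92.8 CPM in sham, 35.5, 35.8 and 26.5 CPM in WT and 47.1, 43.7 and 38.7 CPM in Fgg microglia. It fell in both, with log2 fold changes of -1.39 ± 0.22 (adjusted p = 0.00012) and -0.98 ± 0.21 (adjusted p = 0.0044). Ldhb made up 65.4%, 72.5% and 64.8% of the Ldha and Ldhb total in sham, 15.4%, 10.3% and 7.41% in WT and 23.8%, 15.1% and 12.6% in Fgg microglia at 1 d. The sham shares were above all injured shares, a mean difference of -56.5 percentage points in WT and -50.4 in Fgg microglia (exact two-sided permutation test, p = 0.1 for each, the smallest that 3 against 3 libraries allow).

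**Figure D3:**
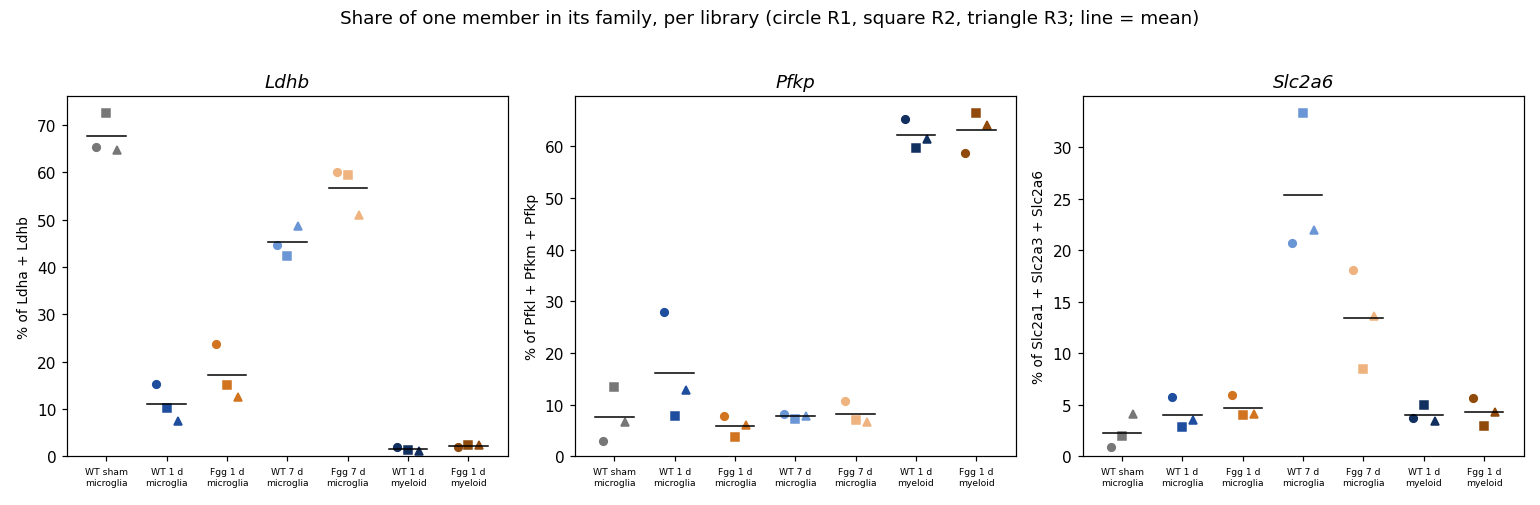
Share of each gene family taken by 1 member in each library, in percent: Ldhb of Ldha and Ldhb, Pfkp of the 3 phosphofructokinases, and Slc2a6 of the 3 glucose transporters. Points are libraries and lines are group means. The Ldhb share is 64.8% to 72.5% in sham and 1.11% to 2.37% in infiltrating myeloid cells.

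Of the lactate transporters, Slc16a3 (MCT4, the exporter of strongly glycolytic cells) rose from 8.32, 9.34 and 11.9 CPM to 32.9, 47.1 and 52.9 CPM in WT and 26.2, 36.7 and 38.2 CPM in Fgg microglia, by 4.49-fold (adjusted p = 1.8e-05) and 3.41-fold (adjusted p = 0.00025). Slc16a1 (MCT1) rose from 1.88, 2.81 and 3.75 CPM to 7.52, 6.59 and 9.33 CPM in WT microglia (log2 1.47 ± 0.39, adjusted p = 0.012), a call lost without sham replicate 1 (adjusted p = 0.069) or WT replicate 3 (0.051). In Fgg microglia it was at 5.0 to 7.35 CPM, also above all sham libraries, and did not pass (adjusted p = 0.11). For the entry of pyruvate into mitochondria, Pdha1, a subunit of pyruvate dehydrogenase, rose by 1.89-fold in WT (adjusted p = 0.00076) and 1.68-fold in Fgg microglia (adjusted p = 0.0068). Pdk1, a kinase that turns that enzyme off and a well known HIF-1 target, fell from 31.6, 29.6 and 21.2 CPM to 16.6, 19 and 16.6 CPM in WT microglia (log2 -0.655 ± 0.19, adjusted p = 0.021). The Pdk1 call was lost without any 1 library other than sham replicate 3 (adjusted p from 0.05 to 0.11).

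Among the hypoxia genes, Mif, a secreted cytokine and HIF-1 target, had the smallest adjusted p of all members. It was at 59.1, 58.2 and 53.5 CPM in sham, 382, 601 and 729 CPM in WT and 279, 461 and 586 CPM in Fgg microglia at 1 d, with no overlap of injured and sham libraries. The change was 10.0-fold in WT (log2 3.33 ± 0.26, adjusted p = 1.2e-07) and 7.76-fold in Fgg microglia (2.96 ± 0.26, adjusted p = 6.4e-07). Ero1l, an oxidase of protein folding, rose from 7.2, 6.04 and 7.82 CPM to 26.5, 24.8 and 34.5 CPM in WT (log2 2.02 ± 0.22, adjusted p = 3.8e-06) and 16.2, 20.6 and 21.3 CPM in Fgg microglia (1.46 ± 0.22, adjusted p = 0.00017). Vegfa, the growth factor of blood vessels, was low, at 0.414, 0.949 and 0.603 CPM in sham, 5.27, 3.22 and 3.9 CPM in WT and 1.49, 2.87 and 3.13 CPM in Fgg microglia. The injured libraries were all above sham, with log2 fold changes of 2.67 ± 0.57 (adjusted p = 0.0024) and 1.92 ± 0.57 (adjusted p = 0.036). The Fgg call for Vegfa was lost without Fgg replicate 2 or 3 (adjusted p = 0.12 for each) or sham replicate 1 (0.15) or 3 (0.12).

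Hif1a itself changed less and was at 32.8, 28.9 and 29.8 CPM in sham, 43.9, 49.4 and 53.5 CPM in WT and 34.8, 43.4 and 39.2 CPM in Fgg microglia at 1 d. All injured libraries lay above sham, and the change passed the test in WT (1.61-fold, adjusted p = 0.0081) but not in Fgg microglia (1.28-fold, adjusted p = 0.24). Egln3, a prolyl hydroxylase that marks HIF-1 alpha for breakdown and is itself induced by it, was at 0.159, 0.494 and 0.0754 CPM in sham, near the floor, and 2.63, 0.688 and 4.22 CPM in WT microglia. It passed the test there (log2 3.42 ± 0.75, adjusted p = 0.0027), with a value of 4.41 without sham replicate 2, and did not pass in Fgg microglia, at 0.597, 0.629 and 0.844 CPM (1.55 ± 0.75, adjusted p = 0.25). Bnip3, which marks mitochondria for removal, rose by 1.79-fold in WT microglia (adjusted p = 0.045), a call lost without sham replicate 1 or 2 or WT replicate 2 or 3 (adjusted p from 0.055 to 0.21) and with DESeq2 size factors (0.076).

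The 9 enzymes Gpi1, Aldoa, Tpi1, Gapdh, Pgk1, Pgam1, Eno1, Pkm and Ldha together took 0.15%, 0.156% and 0.181% of the counts outside ribosomal RNA genes in sham, 0.532%, 0.688% and 0.749% in WT and 0.455%, 0.617% and 0.636% in Fgg microglia at 1 d. Replicate 1 was the lowest of its group in both genotypes. It also had the lowest share of ribosomal RNA (50.8% against 58.1% and 58.7% in WT, 47.3% against 49.6% and 52.6% in Fgg), the lowest share of mitochondrial mRNA (9.43% against 14.6% in both others in WT, 8.78% against 12.4% and 9.94% in Fgg) and the highest sum of monocyte and macrophage markers (255 CPM against 178 and 161 in WT, 138 CPM against 57.0 and 63.5 in Fgg). The part of these properties in the member levels was not tested.

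At 7 d post-CCI fewer members stood apart from sham. In microglia from WT mice 7 members rose against sham and 0 fell (edgeR, with 1 lower at an unadjusted p below 0.05 and 0 lower by DESeq2), against 2.42% of all genes that rose and 0.265% that fell, and the median of the members was 0.435. In microglia from Fgg mice 1 member rose and 0 fell (2 lower at an unadjusted p below 0.05, 0 lower by DESeq2), against 0.831% and 0.0546% of all genes, with a median of 0.199. Mitochondrial mRNA at 7 d took 10.7% to 11.2% in WT and 8.53% to 8.64% in Fgg microglia, above the 6.5% to 8.28% of sham, and ribosomal RNA 51.1% to 55.9% and 48.8% to 52.9%, above its 43.6% to 48.1%. Composition scaling factors, at 0.958 to 1.02 and 1.107 to 1.199, were below the sham range. Summed microglia markers were 8647 to 9552 CPM and 9296 to 10716 CPM, below sham, with 2 and 1 of 12 called lower. Summed oligodendrocyte markers were 51.7 to 83.6 CPM and 40.8 to 55.9 CPM against 25.4 to 32.8 CPM in sham, with 2 and 1 of 10 called higher. The part of these values in the member counts was not tested. The counts depend on the test and on single libraries. DESeq2 called 11 members in WT and 3 in Fgg microglia, against 1305 of 16550 and 591 of 15740 genes. Without sham replicate 1 the WT count was 3, without WT replicate 1 or 2 it was 4, and the Fgg count was 0 without sham replicate 1 or 2 or Fgg replicate 1. Of 23646 to 23716 genes, these fits called 361, 476 and 431 in WT and 84, 76 and 141 in Fgg microglia.

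Slc2a6 was the member furthest from sham at 7 d. It stood at 6.88, 11.3 and 5.68 CPM in WT and 4.28, 1.61 and 3.26 CPM in Fgg microglia, all above the 0.159 to 0.98 CPM of sham. The change was 15.3-fold in WT (log2 3.93 ± 0.52, adjusted p = 0.00022) and 5.88-fold in Fgg microglia (2.56 ± 0.50, adjusted p = 0.013), and without sham replicate 3 the log2 values were 4.88 and 3.50. In Fgg microglia the call was lost without sham replicate 1 (adjusted p = 0.074) or 2 (0.09) or Fgg replicate 1 (0.062), and with the compared groups alone (0.20). Slc2a6 made up 20.7%, 33.3% and 21.9% of the 3 glucose transporters in WT microglia at 7 d, against 0.929% to 4.07% in sham (mean difference 23.0 percentage points, exact two-sided permutation p = 0.1, the smallest possible). The main importer Slc2a1 was back at 24.1, 20.9 and 18.9 CPM in WT and 18.1, 16.1 and 18.1 CPM in Fgg microglia, values that overlapped sham.

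Mif stayed above sham in WT microglia at 7 d, at 161, 127 and 154 CPM (2.59-fold, adjusted p = 0.0027), and was at 110.3, 86.1 and 114 CPM in Fgg microglia (1.82-fold, adjusted p = 0.13). Both groups were above all sham libraries. Hif1a was at 50.2, 58.8 and 61.2 CPM in WT (1.86-fold against sham, adjusted p = 0.0051) and at 48.3, 36.4 and 48.9 CPM in Fgg microglia (1.46-fold, adjusted p = 0.22). Its 7 d level in WT microglia did not pass a test against 1 d (log2 0.21 ± 0.17, adjusted p = 0.49). Pfkfb3, which had not moved at 1 d, rose to 82.5, 104 and 83.2 CPM in WT microglia at 7 d (log2 0.92 ± 0.20, adjusted p = 0.013), a call lost without sham replicate 1 (adjusted p = 0.083) or WT replicate 2 (0.082). In Fgg microglia Pfkfb3 was at 63.1, 72.4 and 70.0 CPM, also above all sham libraries, and did not pass (0.53 ± 0.20, adjusted p = 0.44).

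Ldha at 7 d was at 90.8, 85.7 and 80.5 CPM in WT microglia (2.09-fold against sham, adjusted p = 0.012), a call lost without sham replicate 1 or 2 or WT replicate 1 (adjusted p from 0.053 to 0.085). Gapdh was at 665, 673 and 590 CPM (1.85-fold, adjusted p = 0.023) and Gpi1 at 45.9, 42.6 and 43.2 CPM (1.74-fold, adjusted p = 0.036). These were above all sham libraries, but both calls were lost without any 1 of the 6 libraries other than sham replicate 3 (adjusted p from 0.05 to 0.2). In Fgg microglia the 3 genes had log2 fold changes of 0.54, 0.43 and 0.50 against sham and did not pass.

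Set directly against 1 d, 4 members were higher and 18 lower in WT microglia at 7 d, against 3.7% and 6.6% of all genes. In Fgg microglia 2 were higher and 15 lower, against 1.08% and 4.56%. The medians of the members were -0.82 and -0.85. Pkm had the most negative change in both genotypes. It fell by 2.55 on the log2 scale (adjusted p = 4.3e-05) to 49.6, 57.5 and 45.0 CPM in WT, and by 2.30 (adjusted p = 0.00019) to 37.8, 37.3 and 40.5 CPM in Fgg microglia. Pgk1 fell by 2.35 (adjusted p = 2.6e-05) to 32.4, 26.7 and 19.9 CPM in WT and by 2.06 (adjusted p = 0.00015) to 19.5, 20.0 and 24.6 CPM in Fgg microglia. No 7 d library of either gene reached the lowest 1 d library. Tpi1, Gapdh, Pgam1, Eno1, Ldha, Mif, Ero1l, Slc16a3, Slc16a1, Aldoa, Gpi1, Slc2a1 and Pfkl also fell in both genotypes. Of these, Pfkl in WT lost its call without WT 1 d replicate 2 or 3 or WT 7 d replicate 2 or 3, Gpi1 in WT without WT 1 d replicate 3 (adjusted p = 0.063), and Slc16a1 in Fgg microglia without any 1 library (0.053 to 0.25).

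Ldhb and Pfkfb4 went the other way and rose from 1 d to 7 d in both genotypes. Ldhb reached 73.3, 62.9 and 76.1 CPM in WT (log2 1.12 ± 0.22, adjusted p = 0.0016) and 92.1, 73.4 and 69.9 CPM in Fgg microglia (0.86 ± 0.21, adjusted p = 0.02), the latter lost without Fgg 1 d replicate 2 or 3 or Fgg 7 d replicate 1 (adjusted p from 0.079 to 0.11). Its share of the Ldha and Ldhb total was 44.6%, 42.3% and 48.6% in WT and 60.0%, 59.4% and 50.9% in Fgg microglia at 7 d, between the 1 d and the sham shares. Pfkfb4 reached 17.1, 23.8 and 15.7 CPM in WT (log2 1.23 ± 0.27, adjusted p = 0.0052) and 19.7, 16.4 and 23.1 CPM in Fgg microglia (1.04 ± 0.27, adjusted p = 0.027, lost without Fgg 1 d replicate 2 or 3 or Fgg 7 d replicate 1 or 3). In WT microglia Pfkfb3 (log2 0.73 ± 0.20, adjusted p = 0.023) and Slc2a6 (1.48 ± 0.46, adjusted p = 0.046) were also higher at 7 d than at 1 d, and Pfkp, Vegfa and Pdha1 were lower. The Slc2a6 call was lost without any 1 of the 6 libraries (adjusted p from 0.052 to 0.22). Pfkfb3 lost its call without WT 1 d replicate 2 or 3 or WT 7 d replicate 1 or 2, and Pdha1 without WT 1 d replicate 3 or WT 7 d replicate 1 or 3. The value of Pfkp went from -1.77 to -1.16 without WT 1 d replicate 1, where its call was lost (adjusted p = 0.12), as it was without WT 7 d replicate 2 or 3. That of Vegfa went from -1.93 to -3.13 without WT 7 d replicate 2, and its call was lost without WT 1 d replicate 1 or 3 or WT 7 d replicate 1 or 3 (adjusted p from 0.056 to 0.14).

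Infiltrating myeloid cells at 1 d post-CCI carried the highest levels of most members. Against microglia of the same genotype and time, 17 members were higher and 3 lower in WT mice, where 7.56% of all genes were higher and 8.12% lower, and 19 were higher and 3 lower in Fgg mice, where the shares were 9.33% and 12.1%. The medians of the members were 0.80 and 1.02, against 0 and -0.13 over all genes. Without replicate 1 of the microglia, 13 members were higher and 2 lower in WT mice, and 16 higher and 3 lower in Fgg mice. Those fits called 3010 of 23719 genes in WT (1478 higher) and 3801 of 23614 in Fgg mice (1653 higher). The 9 enzymes took 0.867%, 0.798% and 1.03% of counts outside ribosomal RNA genes in WT and 0.761%, 0.841% and 0.838% in Fgg infiltrating myeloid cells, above every microglia library. The markers differed too: all 12 microglia markers were lower and all 12 monocyte and macrophage markers higher than in microglia, in both genotypes. Of 12 neutrophil markers 6 were higher in WT and 8 in Fgg mice, and of 16 genes that respond to cell dissociation 8 and 10. Their part in the result was not tested.

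**Figure D4:**
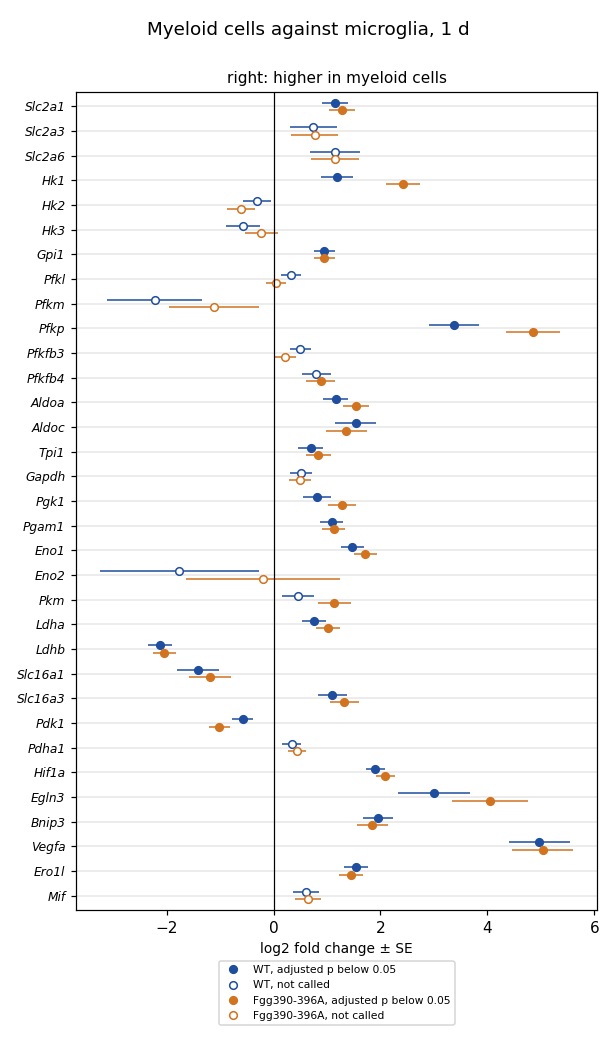
Log2 fold change of each member in infiltrating myeloid cells against microglia at 1 d, in WT (blue) and Fgg (orange) mice. Bars are standard errors and filled points have an adjusted p below 0.05. Vegfa and Pfkp lie furthest to the right and Ldhb furthest to the left among the called members.

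Of the 6 hypoxia genes, Vegfa was at 121, 132 and 134 CPM in WT infiltrating myeloid cells, against 5.27, 3.22 and 3.9 CPM in WT microglia, a 31.3-fold difference (log2 4.97 ± 0.57, adjusted p = 5.4e-06). In Fgg mice it was at 29.7, 69.4 and 144 CPM, spread more widely than in WT, against 1.49 to 3.13 CPM in microglia (log2 5.03 ± 0.58, adjusted p = 3.9e-06, and 4.33 without Fgg infiltrating replicate 3). Egln3 was at 19.3, 11.9 and 29.0 CPM in WT and 2.67, 17.1 and 13.9 CPM in Fgg infiltrating myeloid cells, above all microglia libraries of the same genotype. Its log2 differences were 3.0 ± 0.67 (adjusted p = 0.0036, and 3.64 without WT microglia replicate 3) and 4.04 ± 0.71 (adjusted p = 0.00037).

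Hif1a was at 184, 166 and 200.1 CPM in WT and 126, 178 and 196 CPM in Fgg infiltrating myeloid cells, against 28.9 to 61.2 CPM over all 15 microglia libraries. The difference at 1 d was 3.74-fold in WT (log2 1.90 ± 0.18, adjusted p = 5.8e-07) and 4.26-fold in Fgg mice (2.09 ± 0.18, adjusted p = 1.6e-07). Bnip3 was at 75.8, 41.4 and 101 CPM in WT (log2 1.95 ± 0.28, adjusted p = 7.1e-05) and 58.0, 52.8 and 68.7 CPM in Fgg infiltrating myeloid cells (1.85 ± 0.28, adjusted p = 9.8e-05), above all microglia libraries. Ero1l was at 86.5, 53.4 and 110.1 CPM and 46.0, 55.2 and 57.8 CPM, with log2 differences of 1.54 ± 0.22 (adjusted p = 5.1e-05) and 1.45 ± 0.22 (adjusted p = 7.7e-05). Mif, at 835, 812 and 969 CPM in WT and 776, 609 and 693 CPM in Fgg infiltrating myeloid cells, was above all microglia libraries of the same genotype but did not pass the test (adjusted p = 0.095 and 0.06).

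The cell types also differed in which form of an enzyme they held. Pfkp was at 48.4, 30.2 and 39.0 CPM in WT and 21.6, 41.4 and 38.4 CPM in Fgg infiltrating myeloid cells, and made up 59.7% to 65.3% and 58.7% to 66.5% of the 3 phosphofructokinases. In microglia of the 5 groups it made up 2.94% to 27.9%, and Pfkl took most of the rest. The difference in Pfkp level from microglia was 10.4-fold in WT (log2 3.38 ± 0.47, adjusted p = 3.8e-05, and 3.99 without WT microglia replicate 1) and 28.8-fold in Fgg mice (4.85 ± 0.50, adjusted p = 1.3e-06). Hk1 was at 12.8, 14.3 and 13.1 CPM in WT (log2 1.19 ± 0.30, adjusted p = 0.0097, lost without WT microglia replicate 1) and 19, 22.9 and 15.8 CPM in Fgg infiltrating myeloid cells (2.42 ± 0.32, adjusted p = 1.6e-05). Hk2 and Hk3 overlapped between the cell types in both genotypes and did not pass the test.

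Ldhb had its lowest levels in infiltrating myeloid cells, at 10.4, 5.79 and 5.91 CPM in WT and 8.45, 12.3 and 10.7 CPM in Fgg mice, below every microglia library (log2 -2.13 ± 0.22, adjusted p = 1.9e-06, and -2.04 ± 0.22, adjusted p = 2.2e-06). Its share of the Ldha and Ldhb total was 1.11% to 2.05% in WT and 2.09% to 2.37% in Fgg mice. Slc16a1 was lower than in microglia (log2 -1.41 ± 0.39, adjusted p = 0.017, and -1.19 ± 0.39, adjusted p = 0.032) while Slc16a3 was higher (1.10 ± 0.27, adjusted p = 0.0077, and 1.32 ± 0.27, adjusted p = 0.0016), at 97, 68.8 and 119 CPM in WT and 60.9, 88.3 and 103 CPM in Fgg infiltrating myeloid cells. The Slc16a1 call was lost without WT microglia replicate 3 or WT infiltrating replicate 1 or 3, and in Fgg mice without microglia replicate 2 or infiltrating replicate 1. Pdk1 was also lower, at 10.0 to 13.4 CPM in WT (log2 -0.58 ± 0.19, adjusted p = 0.047, lost without any 1 library other than WT infiltrating replicate 3) and 7.95 to 12.1 CPM in Fgg mice (-1.01 ± 0.19, adjusted p = 0.00076).

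Eno1 led the lower steps, at 486, 489 and 557 CPM in WT (log2 1.47 ± 0.21, adjusted p = 6.6e-05) and 383, 447 and 469 CPM in Fgg infiltrating myeloid cells (1.72 ± 0.22, adjusted p = 1.1e-05). Aldoa was at 401, 495 and 489 CPM in WT and 436, 424 and 399.7 CPM in Fgg mice, and Slc2a1 at 146, 118 and 181 CPM and 96.4, 139 and 147 CPM, above the microglia libraries of each genotype (log2 1.16 and 1.54 for Aldoa, 1.15 and 1.28 for Slc2a1, all called). Pgam1, Gpi1, Aldoc, Ldha, Pgk1 and Tpi1 were higher in both genotypes, and Pkm and Pfkfb4 in Fgg mice. Several of these calls rest on 1 library: Ldha, Pgk1 and Tpi1 in WT were lost without WT microglia replicate 1, and Ldha also without WT infiltrating replicate 1 or 3. Pgk1 and Tpi1 in WT were lost too without microglia replicate 2 or any 1 infiltrating library, and in Fgg mice Tpi1, Pkm and Aldoc were lost without microglia replicate 1, Pkm without infiltrating replicate 2, Aldoc without microglia replicate 3, and Pfkfb4 without microglia replicate 2 or 3 or infiltrating replicate 3. Gapdh, at 2777, 2530.1 and 3236 CPM in WT and 2165, 2498 and 2415 CPM in Fgg infiltrating myeloid cells, did not pass against microglia (log2 0.51 and 0.50, adjusted p = 0.11 and 0.1).

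Between genotypes, which compares cells of mice with fibrin able or unable to bind CD11b/CD18, 0 of 33 members passed the test in any of 3 comparisons. Contact of the sorted cells with fibrin was not measured in these libraries. In microglia at 1 d the share of all genes called was 0.042%, and 0 members were called by edgeR or DESeq2, with 8 at an unadjusted p below 0.05, all lower in Fgg mice. In microglia at 7 d the share was 0.0378%, with 0 members called by either tool and 5 at an unadjusted p below 0.05, all lower. In infiltrating myeloid cells the share was 0.206%, with 0 called by either tool and 2 at an unadjusted p below 0.05, Ero1l lower and Ldhb higher. The log2 fold change was below 0 for 28, 24 and 25 of the 33 members in the 3 comparisons, and their medians were -0.33, -0.26 and -0.21. Over all genes the median was 0 in each comparison in the fit without ribosomal RNA genes. The shares of all genes below 0, or at an unadjusted p below 0.05, are not given here. In microglia at 1 d the median of the members was -0.12 without Fgg replicate 1, -0.17 without WT replicate 3 and -0.46 without WT replicate 1, and in infiltrating myeloid cells it was -0.10 without Fgg replicate 1.

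**Figure D5:**
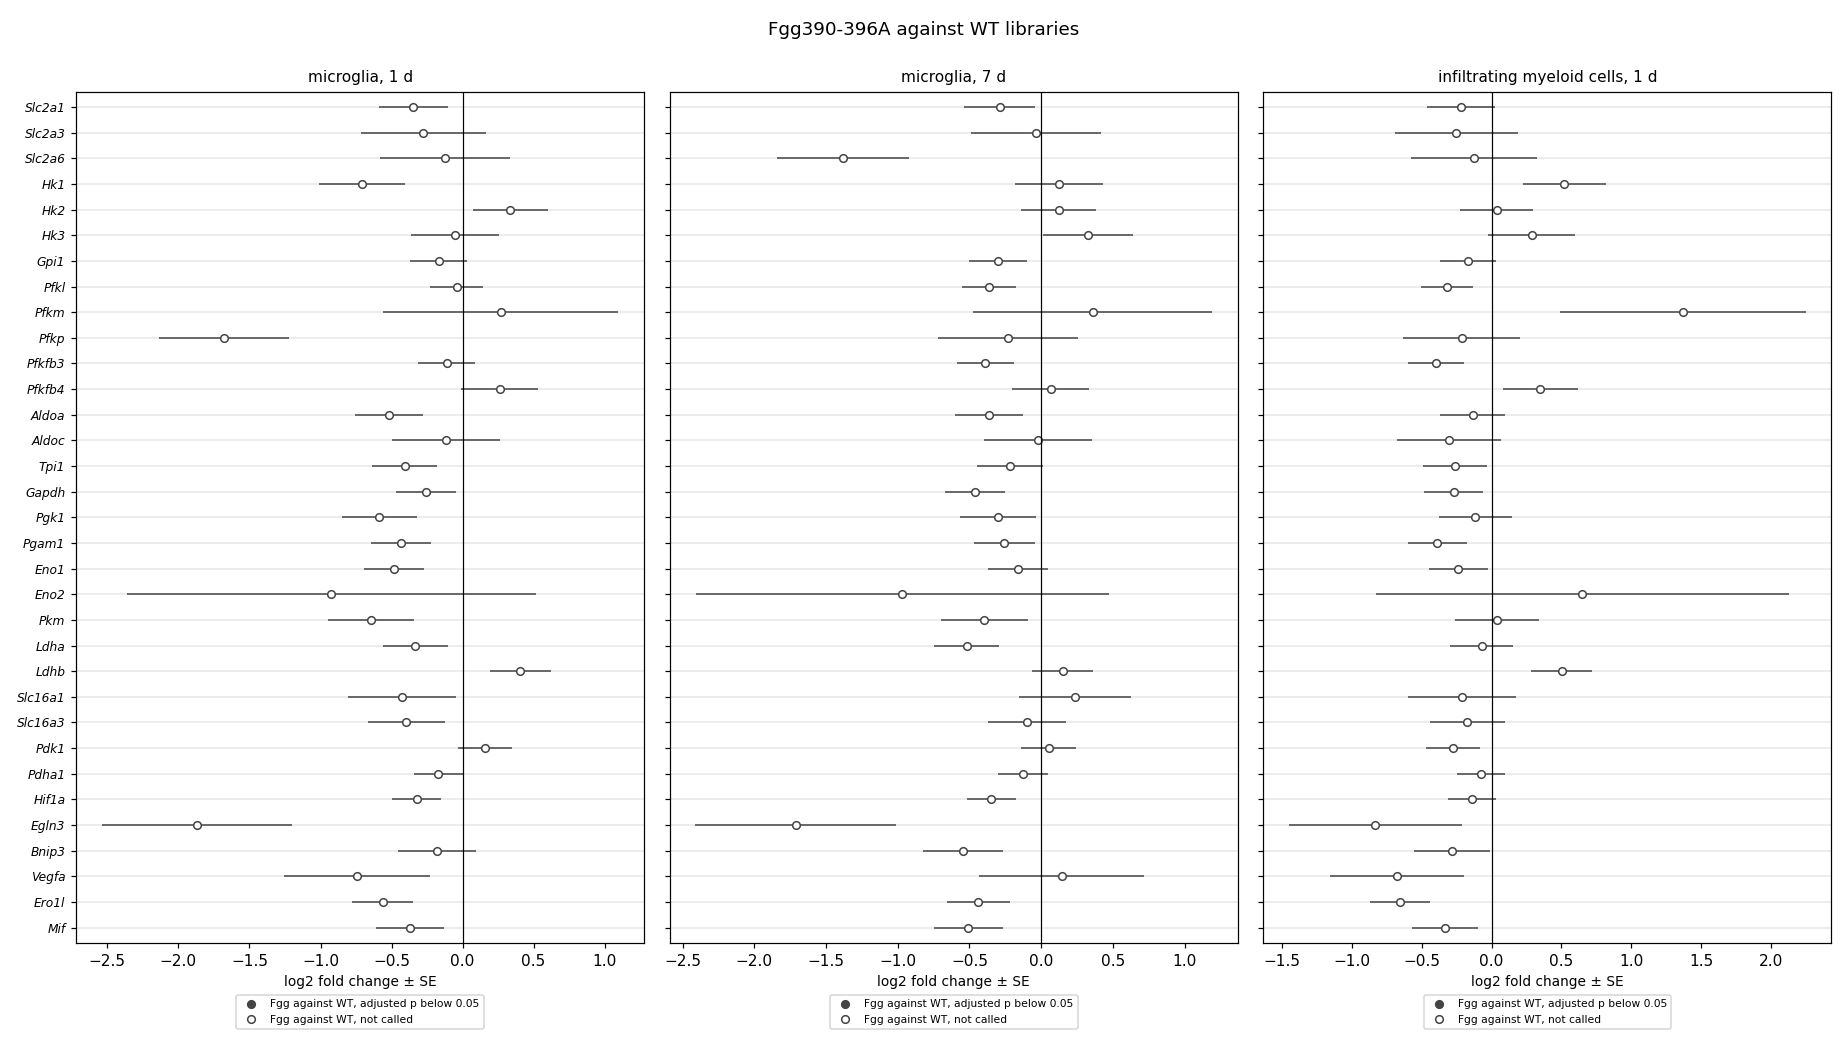
Log2 fold change of each member in Fgg against WT mice, in microglia at 1 d, microglia at 7 d and infiltrating myeloid cells at 1 d. Bars are standard errors. No member had an adjusted p below 0.05, and 28, 24 and 25 of the 33 points lie below 0.

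In microglia at 7 d, 17 members were lower in every Fgg library than in every WT library and 1 was higher, against 5.28% and 5.8% of all genes. The 17 were Slc2a1, Slc2a6, Gpi1, Pfkl, Pfkfb3, Aldoa, Tpi1, Gapdh, Pgam1, Eno2, Pkm, Ldha, Hif1a, Egln3, Bnip3, Ero1l and Mif, and the same count of 17 was found with DESeq2 size factors. No difference passed the adjusted test. Ldha had a log2 fold change of -0.52 (95% interval -0.998 to -0.04, adjusted p = 1), Gapdh of -0.46 (-0.90 to -0.02, adjusted p = 1), Mif of -0.51 (-1.01 to -0.01, adjusted p = 1) and Hif1a of -0.35 (-0.71 to 0.01, adjusted p = 1), the last interval including 0. Slc2a6 was at -1.38 (-2.34 to -0.42, adjusted p = 1) and Egln3 at -1.71 (-3.17 to -0.24, adjusted p = 1), where WT microglia held 1.43, 1.59 and 1.39 CPM and Fgg microglia 0.282, 0.754 and 0.323 CPM. The intervals are not adjusted for the number of genes tested. The share of Ldhb in the Ldha and Ldhb total was 11.5 percentage points higher in Fgg microglia at 7 d (exact two-sided permutation p = 0.1, the smallest possible). Other library properties split the same way: mitochondrial mRNA took 8.53% to 8.64% in Fgg and 10.7% to 11.2% in WT libraries, and composition scaling factors were 1.107 to 1.199 and 0.958 to 1.02. Ribosomal RNA took 48.8% to 52.9% and 51.1% to 55.9%, and the 12 microglia markers summed to 9296 to 10716 CPM and 8647 to 9552 CPM, both overlapping. Of these 12 markers 0 were called higher and 1 lower in Fgg microglia. The 12 monocyte and macrophage markers summed to 58.7 to 86.7 CPM in Fgg and 88.1 to 122 CPM in WT microglia, and 8 markers of cycling cells to 14.6 to 19.4 CPM and 28.7 to 44.1 CPM. Both sums were lower in every Fgg library, while 0 markers of either list were called. The part of these properties and markers in the member differences was not tested.

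In microglia at 1 d, 4 members were lower in every Fgg library (Pfkp, Hif1a, Vegfa and Ero1l) and 1 was higher (Ldhb), against 2.99% and 5.73% of all genes. Same-numbered libraries deviated together in this comparison, and within the 3 pairs 20 members were lower in the Fgg library each time and 2 higher, against 11.6% and 15.5% of all genes, a count chosen after seeing the data. Ero1l had a log2 fold change of -0.56 (95% interval -1.01 to -0.11, adjusted p = 0.89) and Pfkp of -1.68 (-2.64 to -0.73, adjusted p = 0.67). The WT values of Pfkp spread from 1.59 to 6.37 CPM. The Ldhb share was 6.12 percentage points higher in Fgg microglia (exact two-sided permutation p = 0.3). For the main enzymes the intervals ran from -1.28 to -0.01 for Pkm, -1.13 to -0.04 for Pgk1, -0.81 to 0.14 for Ldha and -0.70 to 0.18 for Gapdh, and the last 2 include 0. Summed monocyte and macrophage markers were 57.0 to 138 CPM in Fgg and 161 to 255 CPM in WT microglia. Dissociation response genes summed to 374 to 1011 CPM and 1043 to 1202 CPM, and microglia markers to 6347 to 8066 CPM and 4385 to 6259 CPM. These ranges did not overlap, while those of cycling cell markers, mitochondrial mRNA, ribosomal RNA and composition scaling factors did. Marker by marker, 0 of 12 microglia markers were called higher and 1 lower in Fgg microglia. Of the 12 monocyte and macrophage markers and the 16 dissociation response genes, 0 were called. The part of these properties and marker levels in the member differences was not tested.

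In infiltrating myeloid cells 4 members were lower in every Fgg library (Gapdh, Pgam1, Eno1 and Mif) and 1 was higher (Hk1), against 4.85% and 3.16% of all genes, and with DESeq2 size factors 2 were lower (Gapdh and Pgam1). Ero1l had the smallest p, with a log2 fold change of -0.65 (95% interval -1.10 to -0.20, adjusted p = 0.25). Whether the genotype difference itself varied was tested as an interaction. With cell type 0 members passed by edgeR or DESeq2, with 2 at an unadjusted p below 0.05 (Hk1 at 1.23 ± 0.43 and Pfkp at 1.47 ± 0.62), and 0.0252% of all genes were called. With time in microglia 0 members passed by either tool, with 1 at an unadjusted p below 0.05 (Pfkp at 1.45 ± 0.66), and 0.0% of all genes were called.

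Other genes around the same route were read from 6 lists, against 10.7% of all genes tested that rose and 5.97% that fell in WT microglia at 1 d. There, 5 of 8 genes of the pentose phosphate pathway rose, with Tkt (transketolase) at a log2 fold change of 1.28 ± 0.17 (adjusted p = 2.3e-05) and Pgd at 0.93 ± 0.16 (adjusted p = 0.00029). Tkt was at 15.5, 12.5 and 13.8 CPM in sham and 30.5, 39.4 and 31.5 CPM in WT microglia at 1 d. Of 30 other HIF targets 7 rose and 3 fell, led by the transcription factor gene Bhlhe40 (log2 3.25 ± 0.39, adjusted p = 7e-06). Of 14 other genes of pyruvate entry and lactate transport 3 rose and 1 fell, with the kinase gene Pdk3 at 1.60 ± 0.24 (adjusted p = 8.3e-05) where the member Pdk1 fell. Of 12 glycogen and galactose genes 4 rose and 1 fell, of 11 HIF regulators 2 rose and 2 fell, and of 20 tested other glycolysis and gluconeogenesis genes 3 rose and 1 fell. No list was tested as a whole.

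In Fgg microglia at 1 d the same lists, in the same order, had 4, 5, 3, 3, 1 and 2 genes that rose, against 7.6% of all genes, while 2 other HIF targets and 1 gene of pyruvate entry and lactate transport fell, against 2.19%. At 7 d Bhlhe40 was the only gene of these lists called against sham in WT microglia (log2 3.20 ± 0.39, adjusted p = 8.7e-05), and in Fgg microglia it did not pass (1.62 ± 0.40, adjusted p = 0.06). Its level was 0.255 to 0.578 CPM in sham, 2.74 to 4.01 CPM in WT and 0.922 to 1.61 CPM in Fgg microglia at 7 d, and 98.1 to 115 CPM in WT infiltrating myeloid cells. Against microglia, infiltrating myeloid cells of WT mice also held more Pygl, the liver-type glycogen phosphorylase (log2 4.33 ± 0.40, adjusted p = 5.8e-07), Taldo1 (1.57 ± 0.19, adjusted p = 9.8e-06) and Hilpda (3.57 ± 0.46, adjusted p = 1.8e-05).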

How the data were processed

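Microglia and infiltrating myeloid cells were sorted from mouse brain, and each library pooled 2 brains, so p-values measure the spread between pools. The authors amplified RNA with the Ovation RNA-seq V2 kit, sequenced paired reads of 100 bases, and ran nf-core/rnaseq with salmon on GRCm38. The deposited values are expected counts (salmon gene counts scaled so that transcript length is divided out), and 56.8% of rows hold values that are not whole. They were rounded here. The submitters' processing notes also name R 4.2.0 and DESeq2 1.36.0, and the annotation release is not given in the sources used here. Ensembl identifiers were matched to GENCODE M21 (45143 of 45706).

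All 21 libraries were fitted together with edgeR 4.0.16 in R 4.3.3 (TMM scaling, glmQLFTest, 1 mean per group), for 23815 genes with at least 5 counts in total. Adjusted p-values are Benjamini-Hochberg over all genes tested, and a member was called below 0.05. Intervals use the degrees of freedom of the same test. Values in CPM use the TMM factors (0.735 to 1.546). Shares of a gene family were compared with exact two-sided permutation tests. The smallest chi-square per degree of freedom between replicates was 18.6, so no library was counted as a duplicate. In a simulation of WT microglia at 1 d against sham on 23208 genes, edgeR recovered 63.5% of 200 genes changed by a log2 value of 2, with 6 other calls. DESeq2 recovered 77.5%, with 57 other calls. Where no gene was changed, edgeR made 0 calls and DESeq2 made 28.

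Same-numbered libraries deviated together in Fgg against WT microglia at 1 d (r = 0.372, 0.151 and 0.104 over 12302 genes). Values were also above 0 for each number in WT infiltrating myeloid cells against WT microglia (0.134, 0.166 and 0.0227). The same held for Fgg against WT in microglia at 7 d (0.0934, 0.0643 and 0.0139) and in infiltrating myeloid cells (0.00864, 0.033 and 0.085). The pairing comes from this check and not from the labels. The fit with the replicate block called 0 members and 11 of 23815 genes between genotypes in microglia at 1 d. The tried alternatives were DESeq2 1.42.0, its size factors, removal of ribosomal RNA genes, other filters, near-identical copies added (at least 95% identity over 80% of length, BLAST 2.17.0), a replicate block, the compared groups alone, other thresholds and leaving out each library. Members, lists and tests were chosen with earlier results of these data known. Named genes were called members by smallest adjusted p (at most 8 per comparison and direction), gene families and hypoxia genes in every group, and at most 4 other pathway genes per comparison.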

Additional observations from a re-analysis of the deposited data

How the results depend on the processing

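Of 134 called pairs of a member and a comparison, each recomputed under the alternatives, 1971 of 2144 values kept their direction and call, 173 kept the direction and lost the call, and 0 changed direction. Counts of called members, both directions together, stayed within 1.5 times the reported count except against sham at 7 d. There, 7 members in WT microglia became 11 by DESeq2 and 3 with a log2 change above 1 required, and 3 to 7 when 1 library was left out. In Fgg microglia, 1 member became 3 by DESeq2, 0 with the compared groups alone, and 0 to 1 when 1 library was left out. Of the 19 calls in Fgg microglia at 1 d against sham, 2 were lower, and 5 and 3 were lower by DESeq2 and with its size factors. The causes were not tested. In microglia at 1 d, 20 members were lower in Fgg mice within all 3 same-numbered pairs, as were 11.6% of all genes. By the stricter rule that every Fgg library lies below every WT library, 4 members were lower, as were 2.99% of all genes. The rules differ, so the gap between 20 and 4 does not measure an effect of pairing. The pair count was 18 in microglia at 7 d and 9 in infiltrating myeloid cells, with 2 members higher in each comparison. Of 23815 genes, 2707 were lower and 2885 higher within all 3 pairs in microglia at 7 d. In infiltrating myeloid cells 2631 were lower and 1814 higher. With the replicate block the counts against sham were 26 (WT 1 d), 10 (WT 7 d), 19 (Fgg 1 d) and 1 (Fgg 7 d). That fit called 4011, 683, 2393 and 247 of 23815 genes there. For 7 d against 1 d the counts were 21 in WT and 17 in Fgg microglia, where 2544 and 1389 genes were called. For infiltrating myeloid cells against microglia they were 19 and 23, where 3689 and 5052 genes were called. Between genotypes 0 members were called, where 11 (microglia at 1 d), 9 (microglia at 7 d) and 39 genes (infiltrating myeloid cells) were called. The block added 3 calls against sham in WT microglia at 7 d, where 618 of its 683 called genes were higher (577 higher and 63 lower as reported). It lost the calls of Pfkl (WT 7 d against 1 d, adjusted p = 0.06) and Pdk1 (WT infiltrating myeloid cells, adjusted p = 0.055) and no others. The labels do not say what a shared replicate number stands for. With DESeq2 size factors, 1489 of 2285 genes called in Fgg microglia at 1 d were higher (1810 higher and 522 lower as reported), and 363 of 1200 from 1 d to 7 d in Fgg microglia (257 and 1086). Low values limit Egln3, which was at 0.159, 0.494 and 0.0754 CPM in sham, where a scaled count of 3 is 0.0956, 0.114 and 0.0754 CPM.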
